A study of Mus musculus with 6 samples.

Results

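Ins1, Ins2 and Iapp were followed in ribosome profiling data of MIN6, a line grown from a mouse beta-cell tumour that makes and secretes insulin. These 3 genes were chosen by their symbols from 21652 genes in the count table, and all 3 were among the 12782 genes with enough counts to be tested. Ribosome profiling sequences the mRNA fragments that ribosomes shield from RNase I, so a footprint count combines the amount of an mRNA with its occupancy by ribosomes, and these cannot be told apart here. The control cells carried the sgNT guide, taken here as a non-targeting CRISPR guide, and the other cells carried sgLTN1, a guide against Ltn1, with 3 libraries per group. No treatment, time course or selection of clones is given in the labels, and all libraries come from the same line. Whether a group's libraries were separate cultures is not in the labels. The p-values thus reflect the spread among these libraries only, and that spread may be technical.

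Insulin is made as preproinsulin, whose signal peptide directs the growing chain into the endoplasmic reticulum (ER) and is then cut off. Proinsulin folds there with disulfide bonds, passes to secretory granules, and is cut by the prohormone convertases into insulin and C-peptide. Mice and rats have a pair of insulin genes. Ins2 has the structure of the insulin gene of other mammals, while Ins1 arose as a retrotransposed copy of it, and their coding sequences are nearly identical and of nearly equal length. Iapp encodes the precursor of amylin (islet amyloid polypeptide), a hormone of the calcitonin family that beta cells process, amidate, store and release with insulin. Reads of Ins1 and Ins2 can match both genes, and the handling of such reads is not given in the sources used here. The split of counts between them is thus uncertain. Their sum does not depend on the split. It would be too low if such reads were dropped and too high if they were counted for both genes.

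The insulin and amylin promoters are known to be driven by shared beta-cell factors, among them the homeodomain protein Pdx1 and the E-box protein NeuroD1, and the footprints on those factors are given further on. RefSeq's promoter table for build GRCm38.p6 holds Ins1 and Iapp. The 250 bases before the start that the table gives for each are shown 5′ to 3′, from chr19:52264047-52264296 (+ strand) for Ins1 and chr6:142298175-142298424 (+ strand) for Iapp. Capitals mark TAAT, the core bound by homeodomain proteins, and the E-box CATCTG, each searched on both strands, with overlapping matches counted.
Ins1: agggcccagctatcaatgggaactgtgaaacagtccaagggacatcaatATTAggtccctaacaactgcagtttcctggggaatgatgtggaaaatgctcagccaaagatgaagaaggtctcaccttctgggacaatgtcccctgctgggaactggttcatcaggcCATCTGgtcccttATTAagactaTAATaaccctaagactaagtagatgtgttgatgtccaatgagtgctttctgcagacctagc
Iapp: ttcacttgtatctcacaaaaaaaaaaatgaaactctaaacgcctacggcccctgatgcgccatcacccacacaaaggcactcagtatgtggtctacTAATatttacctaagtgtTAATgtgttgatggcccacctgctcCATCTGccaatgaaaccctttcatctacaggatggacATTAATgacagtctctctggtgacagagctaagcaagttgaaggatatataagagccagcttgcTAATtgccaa
In Ins1 there were 3 matches to TAAT and 1 to CATCTG, the latter beginning 84 bases before the start. In Iapp there were 5 matches to TAAT and 1 to CATCTG, beginning 111 bases before the start. Among 32817 promoters of the same length in the table, 54.9% held TAAT and 14.5% held CATCTG, so the first motif was common to most promoters and the second was not. These matches describe letters in a window and measure no binding. Whether the starts given are those used in MIN6 cells was not tested, so the positions hold for these windows only.

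Gene totals were between 4373467 and 11198735 counts per library. The labels' guide went with its target: Ltn1, which encodes the Listerin E3 ligase of ribosome-associated quality control, stood at 143 ± 1.84 CPM with sgNT and at 67.2 ± 3.67 CPM with sgLTN1 (mean ± SD, n = 3 per group). CPM are counts per 1000000 of the scaled library size. Values of the groups did not overlap. Ltn1 fell by 1.09 on the log2 scale (SE 0.07). By the quasi-likelihood test of edgeR, adjusted over all tested genes by the Benjamini-Hochberg method, its adjusted p was 9.24e-05. Of the tested genes, 0.180% passed the threshold of 0.05, and 11 of these stood higher under sgLTN1 while 12 stood lower.

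The label of a beta-cell line was borne by the hormones themselves and by G6pc2, Abcc8 and Slc30a8, which read 6267, 3018 and 598 CPM in sgNT. Some markers of mature beta cells had few counts. Slc2a2, the glucose transporter GLUT2, held 13 and 22 counts over the 3 libraries of sgNT and sgLTN1, and Ucn3, urocortin 3, held 9 and 3 counts. The summed CPM of the 12 beta-cell markers ranged from 97916 to 108439 in sgNT and from 96608 to 117826 in sgLTN1, so the groups overlapped.

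Ins2 was the most abundant gene by counts in all 6 libraries. Its counts were 217480, 362870 and 223691 with sgNT and 488273, 472655 and 271757 with sgLTN1, libraries 1 to 3 in order. These were 4.97%, 4.65% and 4.99% of each sgNT library and 4.36%, 4.88% and 5.44% of each sgLTN1 library. The lowest and the highest share both lay in sgLTN1, so the control values fell inside the range of the other group.

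Ins1 held 58299, 100998 and 60309 counts in the sgNT libraries and 138099, 134031 and 73092 counts in the sgLTN1 libraries. The shares were 1.33%, 1.29% and 1.35% in sgNT and 1.23%, 1.38% and 1.46% in sgLTN1. Counting error was small against these differences, with a 95% Wilson interval of 1.32% to 1.34% in sgNT library 1, an interval that covers counting error only. Ins1 ranked between 5 and 7 among all genes by counts, near Scg2, which encodes secretogranin II, and Cck, the cholecystokinin gene.

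Iapp held 150869, 246900 and 157054 counts in the sgNT libraries and 318823, 303297 and 173827 counts in the sgLTN1 libraries. It took 3.45%, 3.16% and 3.51% of the sgNT libraries and 2.85%, 3.13% and 3.48% of the sgLTN1 libraries. It ranked 3 in every library except sgNT library 3, where it ranked 2. By mean CPM over all libraries it stood between Chga (chromogranin A) at 36706 and Lars2, the mitochondrial leucyl-tRNA synthetase gene, at 24302. Below came Scg2 at 14747, Ins1 at 13484, Cck at 13294, Pappa2 at 12033 and Pcsk2 at 10824 CPM. Together the 3 hormone genes made up 9.57% ± 0.401 of sgNT counts and 9.41% ± 0.974 of sgLTN1 counts (SD, n = 3 per group). The order Ins2, Iapp, Ins1 held in each library without overlap of their shares. It ranks reads and not levels per length, since no coding lengths were used here.

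**Figure D1:**
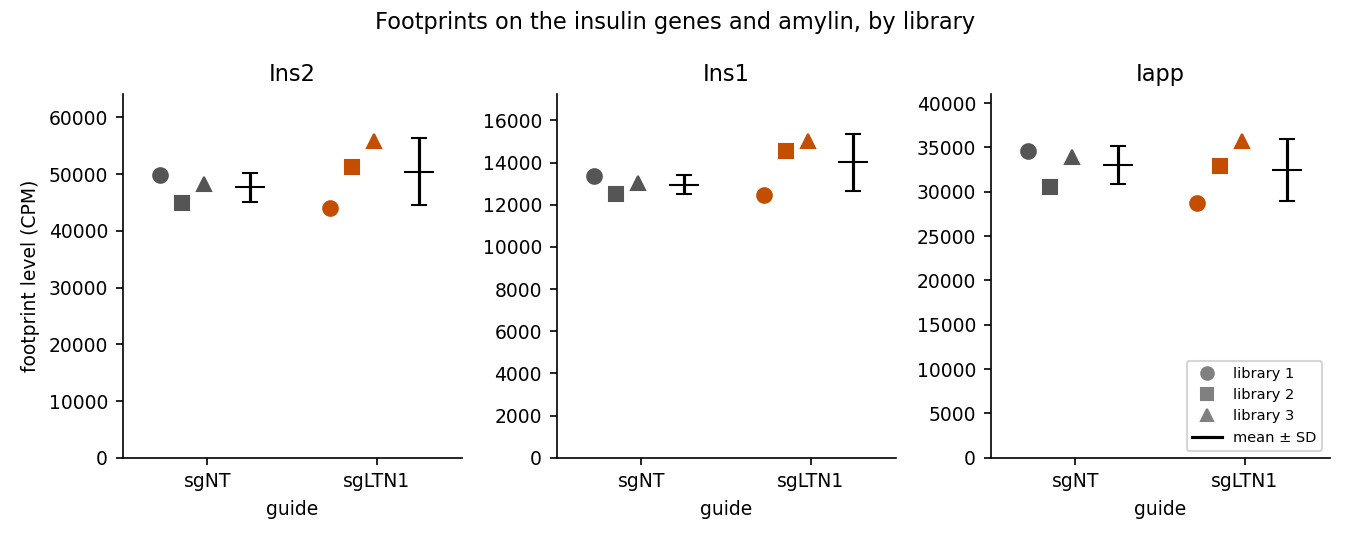
Footprint levels (CPM, vertical axis from 0) of Ins2, Ins1 and Iapp in each library, by guide; symbols are libraries 1 to 3 and bars give mean ± SD (n = 3 per group). In each panel the groups overlap, and sgLTN1 library 1 is the lowest and sgLTN1 library 3 the highest of all 6.

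Scaled to CPM, Ins2 read 49849, 44889 and 48256 in the sgNT libraries and 44079, 51324 and 55841 in the sgLTN1 libraries. Ins1 read 13363, 12494 and 13010 CPM in sgNT and 12467, 14554 and 15019 CPM in sgLTN1. Iapp read 34581, 30543 and 33881 CPM in sgNT and 28782, 32934 and 35718 CPM in sgLTN1. For all 3 genes sgLTN1 library 1 was the lowest and sgLTN1 library 3 the highest of the 6 libraries.

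No difference between the guides passed the threshold for these genes, and none of the 3 had CPM values that separated the groups. Over all tested genes, 20.2% had CPM ranges that were separate in the groups. The log2 fold change of Ins1 was 0.11 (SE 0.07, 95% interval -0.04 to 0.27), with adjusted p = 0.466 in edgeR. That interval runs from 0.973 to 1.20 as a fold. Ins2 changed by 0.08 (SE 0.08, interval -0.09 to 0.25), with adjusted p = 0.681. For Iapp the log2 fold change was -0.02 (SE 0.08, interval -0.19 to 0.15), with adjusted p = 0.930, and its interval of folds ran from 0.874 to 1.11. The authors' deposited table gave log2 fold changes of 0.13 for Ins1, 0.10 for Ins2 and -0.00 for Iapp, with adjusted p = 0.297, 0.485 and 0.991. The direction for Iapp was not settled: leaving out sgNT library 1 gave 0.03, and leaving out sgLTN1 library 1 gave 0.06.

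The 3 genes varied more between sgLTN1 libraries than the median abundant gene, while in sgNT this held for Ins2 and Iapp and not for Ins1. The coefficient of variation in sgNT was 3.37% for Ins1, 5.31% for Ins2 and 6.54% for Iapp. In sgLTN1 it was 9.70%, 11.8% and 10.7%. The median over the 104 genes with a mean of at least 1000 CPM was 3.93% in sgNT and 4.79% in sgLTN1. Within each group the CPM of all 3 genes fell in the order of the library totals, the deepest library being the lowest. That order in both groups was seen for 2.92% of all tested genes and for 6.73% of those with at least 1000 CPM (7 of 104, the 3 hormone genes among them). With the log2 library total as a covariate, chosen after the values were seen, the log2 fold changes were 0.20 (SE 0.07) for Ins1, 0.20 (SE 0.07) for Ins2 and 0.10 (SE 0.07) for Iapp. Their adjusted p-values were 0.354, 0.347 and 0.601 in edgeR. The part of depth in the levels was not tested beyond this.

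Set against other abundant genes, Iapp had a low fold change, while Ins1 and Ins2 lay nearer the middle; no test was made of this. Of the 104 genes with at least 1000 CPM, 94 had a log2 fold change above 0, and their median was 0.15. Only 6 of them had a lower value than Iapp, 28 had a lower value than Ins2 and 40 a lower value than Ins1. The trend of fold change on abundance over all tested genes stood at 0.20 for Ins1 and 0.22 for both other genes. Relative to it Ins1 stood at -0.08, Ins2 at -0.14 and Iapp at -0.24, values that carry no test, at an end of the abundance range where genes are few.

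**Figure D2:**
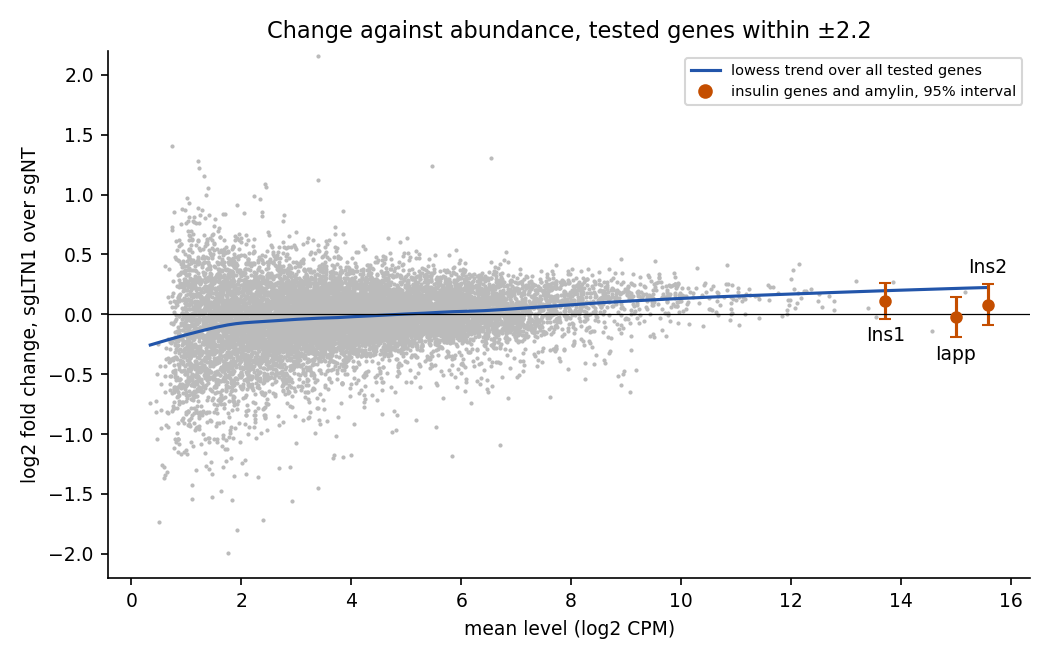
Log2 fold change of sgLTN1 over sgNT (vertical axis) against mean level in log2 CPM (horizontal axis) for tested genes within the plotted range, with a lowess trend and the 3 hormone genes with 95% intervals. The trend rises with abundance to about the level of 0.22, and Ins1, Iapp and Ins2 lie under it.

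Ratios within a library do not depend on its scaling. The ratio of Ins2 to Ins1 counts was 3.73, 3.59 and 3.71 in sgNT and 3.54, 3.53 and 3.72 in sgLTN1. The values of sgLTN1 libraries 1 and 2 were lower than all controls, while sgLTN1 library 3 lay among them. The means were 3.68 ± 0.0740 and 3.59 ± 0.108 (SD, n = 3 per group), a difference in log2 ratio of -0.03 (two-sided exact permutation test, p = 0.3). With 3 libraries against 3, p cannot go below 0.1 in this test, so no ratio or share could pass 0.05. Ratios of counts between Ins1 and Ins2 also hold the uncertainty of reads that match both.

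Amylin footprints were fewer relative to insulin footprints in sgLTN1. The ratio of Iapp counts to the summed Ins1 and Ins2 counts was 0.547, 0.532 and 0.553 in sgNT and 0.509, 0.4999 and 0.504 in sgLTN1. Each sgLTN1 library lay under every control library. The means were 0.544 ± 0.0107 and 0.504 ± 0.00454 (SD, n = 3 per group), which is 7.31% less in sgLTN1. The difference in log2 ratio was -0.11, with p = 0.1 in the two-sided exact permutation test, the smallest p it can give. The groups also did not overlap with either insulin gene alone, denominators added after the values were seen. The pooled SD of the log2 ratio was 0.04 with Ins1 alone and 0.02 with Ins2 alone or with the sum, for differences of -0.14, -0.10 and -0.11. Against Ins1 the ratio was 2.55 ± 0.0878 and 2.32 ± 0.0581. Against Ins2 it was 0.692 ± 0.0109 and 0.645 ± 0.00717. Leaving out any library gave log2 differences between -0.13 and -0.10. The levels of these ratios also depend on how reads that match both insulin genes were handled.

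Across all tested genes, 11.4% had a ratio to insulin that was lower in every sgLTN1 library than in every sgNT library, so separation of this kind is not rare. Among the 104 genes with at least 1000 CPM, Iapp was the only such gene (0.962%). Of these 104 genes, 94 had a log2 fold change above 0, and 28 had a lower one than Ins2. Whether Iapp stood alone by a lower level or by its small spread against insulin was not tested. An edgeR fit over all genes with the summed insulin count as the library size, added after the values were seen, placed Iapp at -0.11 on the log2 scale (SE 0.11, 95% interval -0.32 to 0.11), which did not pass the threshold (adjusted p = 0.840). In that fit 1.10% of genes were called lower. The standard error there is taken in part from the spread of other genes. Within groups, Iapp's own pooled SD was 0.02 for the log2 ratio to insulin against 0.13 for its log2 CPM, so most of its spread between libraries was shared with the insulin genes. The share of the library on Ins1 and Ins2 together was 6.20% ± 0.219 in sgNT and 6.25% ± 0.657 in sgLTN1 (exact permutation p = 1), and that on Iapp was 3.37% ± 0.183 and 3.15% ± 0.318 (exact permutation p = 0.3).

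**Figure D3:**
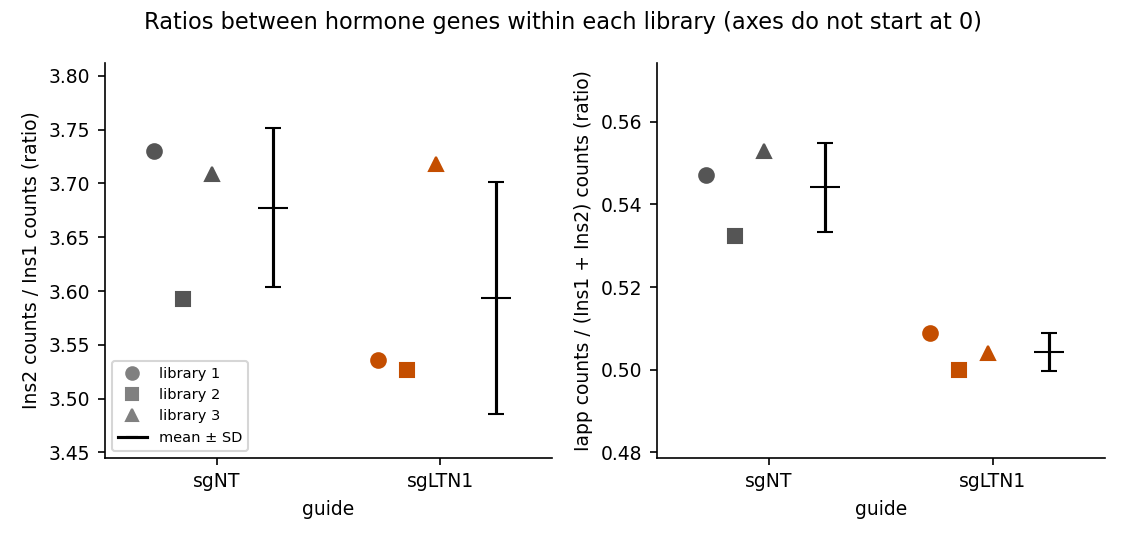
Ratios of counts within each library by guide: Ins2 over Ins1 and Iapp over the sum of both insulin genes, with mean ± SD (n = 3 per group) and axes that do not start at 0. The ratio of Ins2 to Ins1 overlaps between the guides, and the ratio of Iapp to insulin runs from 0.532 to 0.553 in sgNT and from 0.4999 to 0.509 in sgLTN1.

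Across the 6 libraries, the log2 CPM of Ins1 and Ins2 followed each other closely (Pearson r = 0.957, 6 libraries, given as a description). Ins1 was the gene most like Ins2 among 1325 genes with at least 100 CPM, ahead of Mettl26, Gm28635 and Hp1bp3 (r = 0.920, 0.912 and 0.902). The genes most like Ins1 were Pigu (0.970), Ins2, Gm28635 (0.930) and Gm21974 (0.916). Those most like Iapp were Trim52 (0.959), Lars2 (0.941), Epb41l3 (0.935) and Pdyn (0.921), the prodynorphin gene. Ins2 stood seventh by likeness to Iapp (r = 0.887). All of these values share the same libraries, depths and scaling.

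The genes on each side of the members in the RefSeq order did not share their levels. Igf2, which lies next to Ins2, read 1776 ± 94.0 and 2105 ± 92.4 CPM in sgNT and sgLTN1, and was 0.24 higher on the log2 scale (SE 0.06, adjusted p = 0.120), not past the threshold. Th, tyrosine hydroxylase, on the other side, read 176 and 170 CPM. A further entry, Gm49394, listed between Igf2 and Ins2, held 95.1% to 96.1% of the Igf2 count and 3.54% to 4.33% of the Ins2 count in each library. Whether the same reads were counted for Igf2 and Gm49394 was not tested. The neighbours of Ins1 (Sorcs1 and Xpnpep1) and of Iapp (Slco1a5 and Pyroxd1) read from 11.5 to 240 CPM in either group.

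Of the other relatives in the insulin, IGF and relaxin family, Igf2 alone was tested. Igf1, Rln1, Rln3, Insl3, Insl5 and Insl6 held at most 8 counts over 3 libraries of a group, apart from Igf1 with 11 in sgLTN1. In the calcitonin family, Iapp had the company of 3 tested genes. Adm, which encodes the vasodilator adrenomedullin, read 19.5 ± 1.66 and 29.9 ± 2.33 CPM and rose by 0.64 on the log2 scale (SE 0.10, adjusted p = 0.0391 in edgeR). The Adm call ended when any library other than sgLTN1 library 3 was left out, with adjusted p between 0.0610 and 0.306, and when depth was a covariate (adjusted p = 0.103). DESeq2 gave Adm no adjusted p. In the authors' deposited table, 2 members had an adjusted p and neither was called, against 6.79% called higher over all its genes. Adm2 (intermedin) was at 0.10 (SE 0.08) and Calca, the gene of calcitonin and CGRP, at -0.28 (SE 0.27), neither past the threshold. Calcb held 3 and 2 counts.

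Along the route that the hormones take, no gene of 5 lists passed edgeR's test over all genes, in either direction. Of their 87 tested genes, 37 had an unadjusted p under 0.05, 34 of them higher in sgLTN1. Over all tested genes 15.6% had such a p, and 8.00% had it and were higher. The authors' deposited table, made with DESeq2, gave an adjusted p to 67 genes of these lists and called 12, all higher. Over all genes with an adjusted p in that table, 6.79% were called higher (183 of 2697). Neither insulin gene nor Iapp was called by either tool. The lists were drawn up for this route with earlier results of these data known. Their counts and medians are set beside the median of -0.02 over all tested genes. Fold change rose with abundance, and of the 104 genes with at least 1000 CPM, 94 lay above 0, with a median of 0.15. Whether the lists differed from genes of like abundance was not tested. Among 20 tested transcription factors of the insulin genes, 7 had a log2 fold change above 0 and the median was -0.05. Pdx1 read 100 and 92.2 CPM and Neurod1 77.6 and 79.5 CPM in sgNT and sgLTN1. The authors' deposited table called none of the 8 members with an adjusted p there, against 6.79% called higher over all its genes. Insm1, a zinc-finger factor of endocrine cells, was at -0.04 on the log2 scale (SE 0.06) and Mafa, an activator of the insulin genes, at 0.08 (SE 0.07).

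In the list of signal peptide targeting and cleavage, 16 of 22 tested genes lay above 0 with a median of 0.09. Sec61a1, the channel of the ER translocon, read 1936 ± 45.4 and 2252 ± 81.7 CPM (0.22, SE 0.05, adjusted p = 0.119). The translocon-associated subunits Ssr1 and Ssr4 were at 0.17 (SE 0.06) and 0.15 (SE 0.05). Relative to the abundance trend, Sec61a1, Ssr1 and Ssr4 stood at 0.07, 0.04 and 0.02. The authors' deposited table called 2 of the 18 members with an adjusted p there higher, Sec61a1 and Tram1. In the list of proinsulin folding, all 20 tested genes lay above 0, with a median of 0.17. The chaperone gene Hspa5 (BiP) read 6991 ± 106 and 7174 ± 201 CPM (0.04, SE 0.05), and the disulfide isomerase gene P4hb 4850 ± 146 and 5629 ± 166 CPM (0.21, SE 0.05, adjusted p = 0.117). Hsp90b1, the ER chaperone GRP94, was at 0.14 (SE 0.06). With the abundance trend removed, Hspa5 stood at -0.15, Hsp90b1 at -0.04 and P4hb at 0.04. The authors' deposited table called 4 of 20 members higher, P4hb, Ero1a, Sil1 and Syvn1, against the 6.79% over all its genes.

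The 7 genes of prohormone processing and amidation all lay above 0, with a median of 0.11. The convertase genes Pcsk2 and Pcsk1 were at 0.05 (SE 0.05) and 0.11 (SE 0.05), and Cpe, the carboxypeptidase that trims the cut ends, at 0.11 (SE 0.07). Relative to the abundance trend, Pcsk2 stood at -0.14, Pcsk1 at -0.07 and Cpe at -0.07. The fitted values of Ins1 and Ins2, 0.11 and 0.08, lay in the same range, while that of Iapp, -0.02, lay under all 7, differences that were not tested. Of the 7 members, 1, Cpd, was called higher in the authors' deposited table. Among 18 genes of granule storage and release, 12 lay above 0 and the median was 0.17. The granin genes Chga, Scg2 and Chgb were at 0.19 (SE 0.05), 0.27 (SE 0.06) and 0.28 (SE 0.06), with adjusted p = 0.150, 0.0951 and 0.0881. Their CPM were higher in every sgLTN1 library than in every control, while another granin gene, Scg3 (0.21, SE 0.07), overlapped. Of all 12782 tested genes, 1290 were higher in this way, and 20.2% were separate in either direction. Set against the abundance trend, Chga stood at -0.03, Scg2 at 0.07 and Chgb at 0.09. The other 6 members lay below 0. Among these were the SNARE genes Snap25 (-0.34, SE 0.10) and Stx1a (-0.69, SE 0.28), with adjusted p = 0.162 and 0.275, and Ica1, Rab3a and Rab27a, all 5 with separate CPM ranges. The authors' deposited table called higher 5 of the 14 members with an adjusted p there, against 6.79% over all its genes, among them Scg2 and Chgb. Whether granins and hormones differed from each other was not tested.

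**Figure D4:**
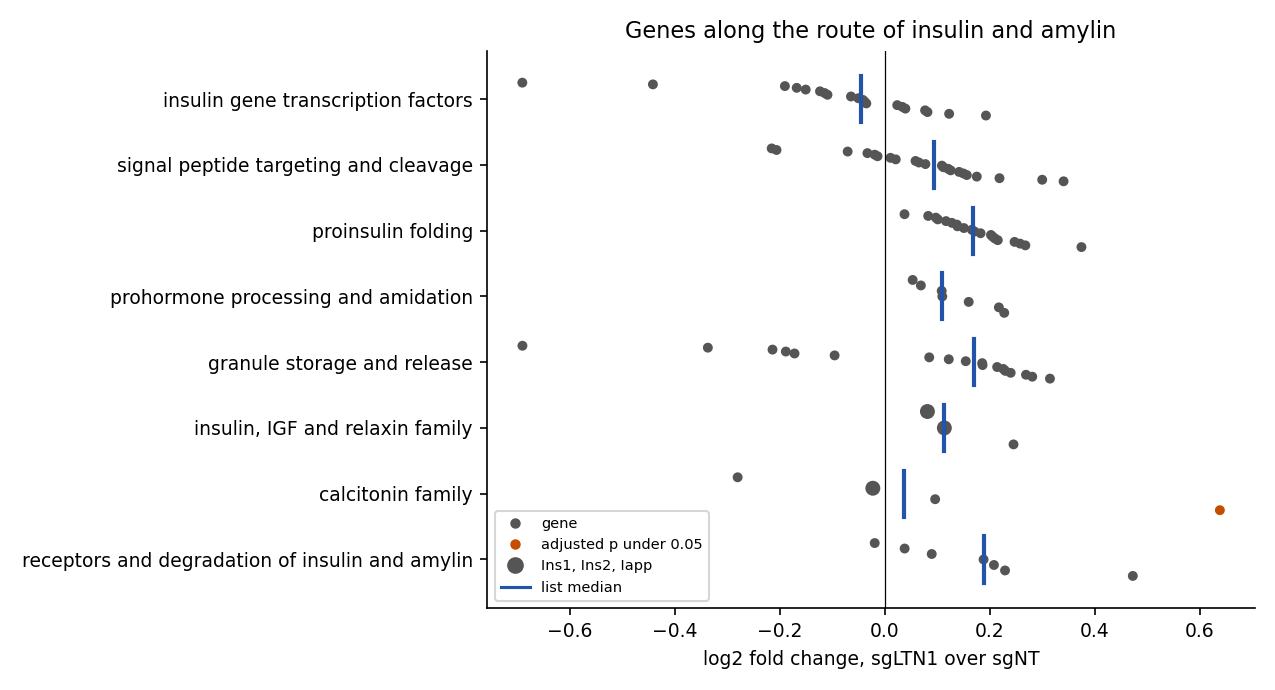
Log2 fold changes of sgLTN1 over sgNT (horizontal axis) for tested genes of 8 lists; each point is a gene, large points are Ins1, Ins2 and Iapp, and vertical lines are list medians. Adm alone passes an adjusted p of 0.05, and the medians run from -0.05 for transcription factors to 0.19 for receptors.

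Of 10 genes of receptors and degradation, 7 were tested and none passed in edgeR. At an unadjusted p under 0.05 there were 2 of 7, against 15.6% of all tested genes. The authors' deposited table called 1 of 4 with an adjusted p there higher, Igf2r, against 6.79%. The insulin receptor gene Insr read 111 ± 5.61 and 114 ± 11.0 CPM (0.04, SE 0.08), and Ide, the insulin-degrading enzyme that also cleaves amylin, was at -0.02 (SE 0.07). Igf1r was at 0.19 (SE 0.08) and Igf2r at 0.23 (SE 0.06), with adjusted p = 0.273 and 0.126. The amylin receptor is made of the calcitonin receptor with a RAMP partner. Calcr held 9 and 12 counts and Ramp3 15 and 19 counts over the libraries of each group, too few to be tested. The other RAMP genes were tested: Ramp1 read 4.80 ± 1.996 and 6.98 ± 0.986 CPM (0.47, SE 0.26, adjusted p = 0.411) and Ramp2 25.1 ± 4.09 and 27.1 ± 1.59 CPM (0.09, SE 0.12, adjusted p = 0.776). Neither passed, and the groups overlapped for both.

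Other hormones of the islet were present at lower counts. Gcg, the glucagon gene, read 562 ± 14.5 and 566 ± 34.7 CPM (0.01, SE 0.06). Sst, the somatostatin gene, read 30.4 ± 1.42 and 43.3 ± 3.65 CPM (0.50, SE 0.09, adjusted p = 0.0620), and Ppy, pancreatic polypeptide, 3.30 ± 1.07 and 6.09 ± 1.02 CPM (0.82, SE 0.26, adjusted p = 0.176). Ghrl held 2 counts in each group. Summed CPM of the 5 alpha-cell markers ranged from 4086 to 4285 in sgNT and from 4871 to 5548 in sgLTN1, most of it from Ttr, the transthyretin gene, which rose by 0.37 on the log2 scale (SE 0.06, adjusted p = 0.0458). The Ttr call ended with DESeq2's size factors in edgeR (adjusted p = 0.0506), with depth as a covariate (0.0553), and when any library but sgLTN1 library 3 was left out (0.0563 to 0.308). It held in edgeR without a filter (adjusted p = 0.00419) and with the library number as a block (0.00711). DESeq2 itself called Ttr (adjusted p = 0.000129), as did the authors' deposited table. These are not separate sources: for Ins1, Ins2 and Iapp the DESeq2 run gave the same values as the authors' deposited table. The 8 acinar markers summed to between 4.13 and 8.90 CPM over all libraries, and the 3 stroma markers to between 4.67 and 9.45 CPM. Among the 4 duct markers, Krt19, Sox9 and Cftr held 4 to 7 counts a group, while Spp1, osteopontin, read 1972 and 2140 CPM. The part of such cells in the hormone values was not tested.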

How the data were processed

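Footprints were sequenced from 6 libraries of MIN6 cells, grouped by the genotype in the labels and numbered by their titles. The authors deposited whole-number read counts per gene. The submitters' processing notes name build GRCm39 and the tools STAR 2.7.11a, featureCounts 2.12.3, fastp 0.23.4, Bowtie2 2.5.4, SAMtools 1.9 and UMI-tools 1.1.2. Annotation, strand setting and treatment of reads matching several genes are not stated there. A table the authors deposited holds DESeq2 (1.38.3) results: the log2 fold change, the mean normalized count as a signal, the p-value, and as a score the Wald statistic.

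Counts were analysed with edgeR 4.0.16 in R 4.3.3: filterByExpr, TMM factors, and the quasi-likelihood test of group over all 6 libraries, tested first on simulated data. Benjamini-Hochberg adjustment ran over all tested genes with a threshold of 0.05. Standard errors come from the test statistic. Log2 CPM used a prior count of 2. Alternatives were other scalings, no filter, DESeq2, a replicate block, single libraries left out and, added after seeing the data, depth as a covariate, a single insulin gene as denominator and insulin counts as library size. Permutation tests enumerated 20 labellings. Wilson intervals cover counting error only, since reads may not be independent molecules.

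The members and gene lists were chosen with earlier results of these data known. Named from each list were genes past the threshold and the 3 with the highest mean CPM, then for each hormone gene its neighbours in rank and the 4 genes most alike. Pdx1 and Neurod1 (for the motifs), marker genes, list members with few counts, Calca, Ide, Ramp1, Ramp2, Scg3, lower members of the granule list, genes beside the members on the chromosome and genes called only in the authors' table were named outside that rule. Some genes that the rule names are not reported here, and the counts of genes include them. No pair of replicates matched within sampling noise: for the most alike, chi-square over its degrees of freedom was 2.55. Motif shares were counted over distinct promoter windows.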

Additional observations from a re-analysis of the deposited data

How the results depend on the processing

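Under the 13 alternatives with a test for each of Ins1, Ins2 and Iapp, no change passed the threshold. In a further alternative that has no test, with the abundance trend removed the log2 fold changes were -0.084 for Ins1, -0.14 for Ins2 and -0.24 for Iapp, the first 2 turning in sign. The change of Iapp turned to 0.10 with the library total as a covariate, and ranged from -0.0919 (without sgLTN1 library 3) to 0.0574 (without sgLTN1 library 1) when 1 library was left out. The difference in the insulin share, in percentage points, ranged from -0.268 (without sgLTN1 library 3) to 0.389 (without sgLTN1 library 1). The Iapp share and both ratios kept their direction under every alternative tried. The count of genes called, 23, was 42 with total counts as scaling, 222 without a filter and 227 with DESeq2 (of 2697 genes it gave an adjusted p). With a library left out it ranged from 4 to 333 (without sgLTN1 library 2 and library 3). Same-numbered libraries deviated together with r of -0.07, 0.18 and 0.18, so the numbers were not taken to pair them. With the number as a replicate block 609 genes were called, 406 of them higher, and the changes were 0.11 for Ins1, 0.08 for Ins2 and -0.03 for Iapp, none past the threshold. Of the controls, 2 of 3 correlated best with the sgLTN1 library of their own number. The causes were not tested. Counting error of the 3 genes is small beside their spread between libraries. The part of depth in that spread was not tested beyond the fit with the library total as a covariate.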
